A study of Mus musculus with 6 samples.

Results

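Ferroptosis is a death of cells by iron-dependent peroxidation of membrane lipids, and the genes described here are 10 that set how a cell meets it. They are Gpx4, Aifm2, Acsl4, Lpcat3, Acsl3, Tfrc, Fth1, Ftl1, Ncoa4 and Slc40a1, chosen by name for their role in peroxide defence, in the make-up of membrane lipids or in the handling of iron. All 10 were found among the 24214 features of the gene tables, and all 10 passed the filter on low counts that left 13892 tested genes. The samples were 393P cells, a murine lung adenocarcinoma (LUAD) line with an epithelial phenotype and of C57BL/6 origin, which the labels call KP lung cancer cells, and their RNA was sequenced. The cells carried either a vector for ectopic expression of ZEB1 (393P_ZEB1, 3 samples) or the empty vector (393P_vector, 3 samples). ZEB1 is a transcriptional repressor that drives epithelial-to-mesenchymal transition (EMT), and the dataset served the study to look for genes that are higher with it. Both groups were transfectants, which the study selected with puromycin or G418, and were grown in RPMI-1640 with 10% serum, so the vector and the selection are shared by the controls. The promoter of the vector, and whether each group is a pool of transfectants or a clone, are not given in the sources used here. The labels do not say whether the samples came from separate cultures, so the p-values measure the spread between these samples, which may be technical.

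Reads summed to between 54442450 and 79158012 per sample, the most in 393P_vector replicate 3. Levels are given as CPM, counts relative to the total reads of the sample, times 1e6, after scaling of the libraries by the TMM method. Zeb1 had 21.2, 22.0 and 21.4 CPM in the 3 vector samples and 54.9, 48.9 and 51.3 CPM in the 3 ZEB1 samples, 2.40-fold more (adjusted p = 6.06e-05 by edgeR), as the labels have it. Of 5 epithelial markers (Epcam, Cdh1, Krt8, Krt18 and Krt19) 4 fell, and Krt19 did not pass. The summed level of the 5 was 4370 to 4997 CPM in the vector samples and 2745 to 3041 CPM in the ZEB1 samples, most of it from the keratins. The mean of Epcam fell from 122.3 to 1.31 CPM and that of Cdh1 from 162.3 to 9.51 CPM, both highest in vector replicate 3. All 5 mesenchymal markers (Vim, Zeb1, Zeb2, Fn1 and Cdh2) rose, from a sum of 7614 to 8393 CPM up to 10630 to 11910 CPM. Zeb1 among them is the gene that the vector expresses, so its rise is no separate sign. Vim and Fn1 made up most of the sum. The lung lineage markers Nkx2-1, Sftpc and Scgb1a1 were near 0, with a summed level of at most 0.108 CPM, so the lung label was not borne out by them. Fewer cells of a type and less RNA per cell cannot be told apart in bulk RNA. Beside these groups, 393P_vector replicate 3 stood apart in several of the genes below. It held the highest of the 6 values in 5 of the 10 genes, against 28.0% of all tested genes, and the values without it are given beside the calls and counts that it changed.

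Lipid peroxidation starts at phospholipids with polyunsaturated tails, which enzymes such as ACSL4 and LPCAT3 build into membranes, and it is fed by free ferrous iron. GPX4 reduces the lipid peroxides with glutathione, and FSP1, the product of Aifm2, keeps a pool of radical-trapping quinols. Iron enters by the transferrin receptor, is stored in ferritin, is freed when ferritin is degraded and leaves by ferroportin. Much of this iron traffic is set after transcription, since iron regulatory proteins bind hairpins called iron-responsive elements (IREs) in the untranslated ends (UTRs) of the mRNAs, so mRNA levels alone do not give the protein levels.

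The hairpins are shown because they divide the 10 genes into those with and those without this pattern. The pattern searched was an unpaired C, a stem of 5 base pairs and the loop CAGTGN, where the last base was A, C or T, a core of 17 bases read on the strand of the transcript. It was found in GENCODE M21 transcripts on GRCm38 in 4 of the 10 genes, Fth1, Ftl1, Slc40a1 and Tfrc, and in none of the other 6. Among 22527 coding genes, 23 (0.102%) had it in a 5′ UTR and 110 (0.488%) in a 3′ UTR. Each core is printed with 6 flanking bases, 5′ to 3′ as DNA, with the unpaired C and the loop in capitals. A match is a description of the sequence and not proof of binding. The 3 sites in 5′ UTRs, where binding is known to hold back translation, lay at chr19:9982738-9982754 (plus strand, Fth1), chr7:45459785-45459801 (minus strand, Ftl1) and chr1:45925471-45925487 (minus strand, Slc40a1).
Fth1 5′ UTR: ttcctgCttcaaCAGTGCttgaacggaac
Ftl1 5′ UTR: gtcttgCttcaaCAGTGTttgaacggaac
Slc40a1 5′ UTR: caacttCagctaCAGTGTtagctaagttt
The 4 sites in the 3′ UTR of Tfrc, where binding is known to protect the mRNA from decay, lay on the plus strand at chr16:32631225-32631241, chr16:32631604-32631620, chr16:32631669-32631685 and chr16:32631716-32631732, in the order printed.
Tfrc site a: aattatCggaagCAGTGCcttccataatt
Tfrc site b: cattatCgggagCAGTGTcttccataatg
Tfrc site c: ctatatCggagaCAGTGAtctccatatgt
Tfrc site d: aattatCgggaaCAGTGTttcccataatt

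Of the 10 genes, 2 rose in 393P_ZEB1 cells and none fell (edgeR's quasi-likelihood test with Benjamini-Hochberg adjustment over all 13892 genes, threshold 0.05). Slc40a1, the only known exporter of cellular iron, rose 2.70-fold, and Acsl4, the ligase that activates arachidonic acid for membrane lipids, rose 1.49-fold. Among all tested genes 18.3% rose and 19.3% fell, 37.6% in all, so the 20% of these genes that rose was near the background. At an unadjusted p under 0.05, 3 of the 10 were higher and 1 was lower, beside 22.4% and 24.2% of all tested genes. DESeq2 called 2 higher and none lower, beside 2823 and 2957 of all 13892 genes. Limma with voom and sample weights called 3 higher and 1 lower, beside 3971 and 4100 of all 13892 genes. The median log2 fold change of the 10 genes was -0.0064, beside -0.02 for all tested genes, and their values ran from -0.44 to 1.43. The samples of the groups did not overlap in 5 of the 10 genes, 3 with ZEB1 above and 2 with ZEB1 below, while 52.8% of all tested genes did not overlap, 26.3% with ZEB1 above and 26.5% with ZEB1 below. Without 393P_vector replicate 3, 3 of the 10 rose and 1 fell, where 26.2% of 14106 tested genes rose and 26.8% fell.

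**Figure D1:**
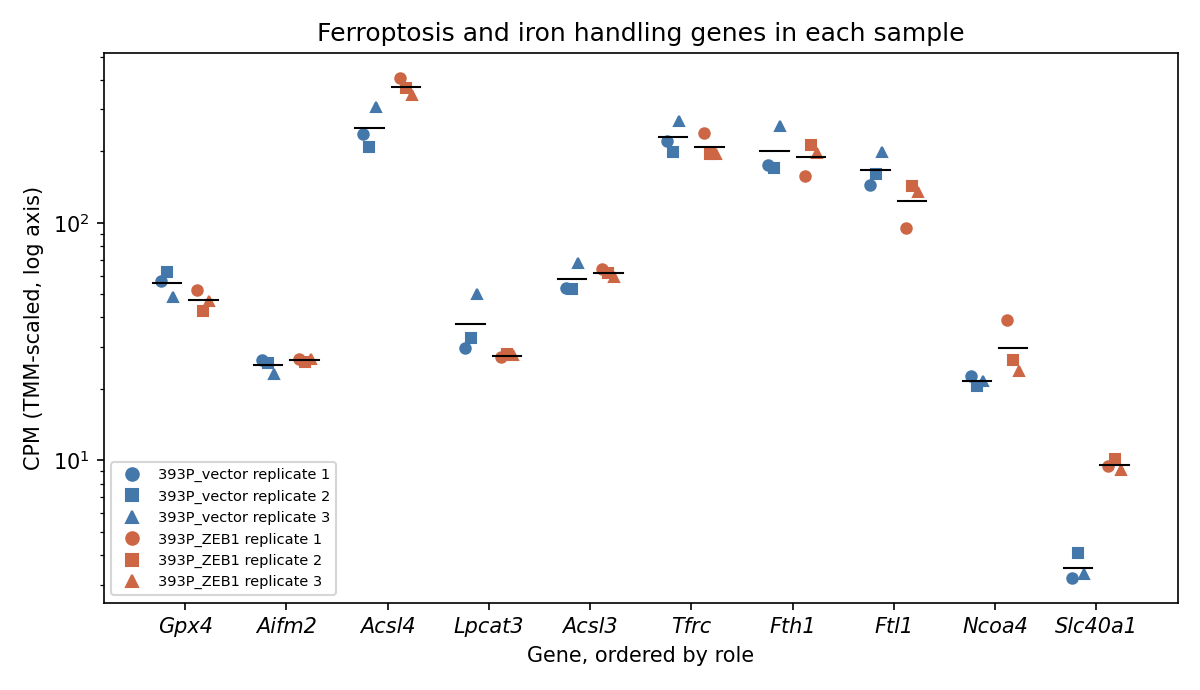
CPM (log axis) of the 10 genes in each of the 6 samples, with blue symbols for 393P_vector, orange symbols for 393P_ZEB1, a symbol shape for each replicate number and a bar at the group mean. The ZEB1 samples sit above all vector samples for Acsl4, Ncoa4 and Slc40a1 and below them for Lpcat3 and Ftl1, and the blue triangle, vector replicate 3, is the highest of the 6 in 5 genes.

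Levels of different genes were compared as CPM per kilobase of exon length. In the vector samples the ferritin chains led, Ftl1 with 173.6 ± 28.8 and Fth1 with 132.9 ± 31.9 CPM per kb (SD, n = 3). Acsl4 with 47.7 ± 9.75, Gpx4 with 46.9 ± 5.81 and Tfrc with 46.8 ± 7.25 CPM per kb came next and differed by less than their spread. Lpcat3 (15.1 ± 4.48) and Acsl3 (14.7 ± 2.18 CPM per kb) also lay within their spread of each other. Aifm2 (7.28 ± 0.504), Ncoa4 (6.06 ± 0.281) and Slc40a1 (1.05 ± 0.139 CPM per kb) were the least abundant, each apart from the next by more than the spread. In the ZEB1 samples the order from the top was Ftl1 (128.5 ± 26.1), Fth1 (125.2 ± 18.3), Acsl4 (70.9 ± 5.97), Tfrc (42.8 ± 5.27) and Gpx4 (39.6 ± 4.03 CPM per kb). Acsl4 was there apart from Tfrc and Gpx4, which it had matched in the vector samples. Acsl3 (15.7 ± 0.636), Lpcat3 (11.1 ± 0.176), Ncoa4 (8.35 ± 2.28), Aifm2 (7.66 ± 0.151) and Slc40a1 (2.84 ± 0.148 CPM per kb) followed. Slc40a1 kept the lowest level in both groups. In the ZEB1 samples the pairs Ftl1 with Fth1, Tfrc with Gpx4, and Ncoa4 with Aifm2 were not apart beyond their spread. The levels of Ftl1, Gpx4 and Ncoa4 are uncertain because of near-identical copies, described below, and so are their places in this order.

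Of the defence genes, Gpx4 (chr10:80053510-80056439, plus strand, 8 exons), the selenoenzyme that reduces phospholipid peroxides, had 56.9, 62.3 and 48.5 CPM in vector replicates 1 to 3 and 52.1, 42.5 and 47.1 CPM in ZEB1 replicates 1 to 3. The highest values were vector replicates 1 and 2, and the groups overlapped through vector replicate 3 and ZEB1 replicate 1. The log2 fold change of Gpx4 was -0.24 ± 0.13 (SE; 95% interval -0.56 to 0.07), with an adjusted p of 0.196 by edgeR. Without vector replicate 3 it fell by 0.34 on the log2 scale and passed the test (adjusted p = 0.0174 by edgeR). Gpx4 lies on chromosome 10, where the median log2 fold change of the 675 other tested genes was -0.30, and its own value less that median was 0.054. The part of the chromosome in the result was not tested. Gpx4 also shares 99.73% of 733 bases with the pseudogene Gpx4-ps2, and how reads shared between copies were counted is not given in the sources used here, so its level is uncertain.

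Aifm2 (chr10:61715263-61739260, plus strand, 13 exons) encodes FSP1, which regenerates reduced coenzyme Q at membranes. It had 26.6, 25.7 and 23.2 CPM in the vector samples and 26.8, 25.9 and 26.8 CPM in the ZEB1 samples. All 6 values of Aifm2 were close, the lowest being vector replicate 3, and the groups overlapped. The log2 fold change was 0.07 ± 0.11 (SE; 95% interval -0.18 to 0.33), with an adjusted p of 0.630 by edgeR, so a change of over 1.5-fold in Aifm2 lay outside the interval. It is on the same chromosome as Gpx4, and its value less the median of that chromosome was 0.37.

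Of the lipid substrate enzymes, Acsl4 (chrX:142317993-142390535, minus strand, 18 exons) had 235.8, 209.1 and 308.3 CPM in the vector samples. In the ZEB1 samples Acsl4 had 407.1, 368.0 and 344.9 CPM. Each ZEB1 sample was above each vector sample, and vector replicate 3 came nearest. Acsl4 rose by a log2 fold change of 0.57 ± 0.16 (SE; 95% interval 0.20 to 0.94), 1.49-fold, with an adjusted p of 0.0249 by edgeR. The rise was 0.75 (adjusted p = 8.91e-05 by edgeR) without vector replicate 3. Leaving out any of the other 5 samples ended the call of Acsl4, with adjusted p values by edgeR of 0.0762 without vector replicate 1, 0.0647 without vector replicate 2, 0.0928 without ZEB1 replicate 1, 0.0718 without ZEB1 replicate 2 and 0.0514 without ZEB1 replicate 3. The fold change in those fits stayed between 0.46 and 0.64, and against a change of 1.5-fold Acsl4 did not pass (adjusted p = 0.798 by edgeR).

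Lpcat3 (chr6:124663104-124704716, plus strand, 13 exons) places polyunsaturated chains into lysophospholipids, the step after ACSL4. It had 29.8, 32.6 and 50.4 CPM in the vector samples and 27.2, 28.0 and 27.8 CPM in the ZEB1 samples. The ZEB1 samples were all below the vector samples and close together, while vector replicate 3 held 1.61 times the mean of the other vector samples. Lpcat3 had a log2 fold change of -0.44 ± 0.20 (SE; 95% interval -0.91 to 0.02), with an adjusted p of 0.119 by edgeR. Without vector replicate 3 it was -0.18 (adjusted p = 0.128 by edgeR). Lpcat3 lies on chromosome 6, where the median of the 669 other tested genes was -0.36, and its value less that median was -0.089. The part of the chromosome in this value was not tested.

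Acsl3 (chr1:78657825-78707743, plus strand, 16 exons) activates monounsaturated fatty acids such as oleate, whose phospholipids resist peroxidation. It had 53.1, 52.8 and 67.8 CPM in the vector samples and 64.2, 61.5 and 59.2 CPM in the ZEB1 samples. Vector replicates 1 and 2 were the lowest and vector replicate 3 the highest of the 6. Acsl3 had a log2 fold change of 0.09 ± 0.13 (SE; 95% interval -0.21 to 0.39), with an adjusted p of 0.619 by edgeR. Without vector replicate 3 Acsl3 rose by 0.22 and passed the test (adjusted p = 0.0420 by edgeR). It shares an exon stretch of 207 bases with Utp14b, which overlaps it on the same strand.

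The balance of the acyl-CoA ligases within each sample does not depend on the scaling of libraries. Acsl4 was 3.32, 2.96 and 3.40 times Acsl3 per kilobase in the vector samples and 4.74, 4.47 and 4.35 times Acsl3 in the ZEB1 samples. The groups did not overlap, and in this ratio vector replicate 3 lay with the other vector samples. The mean log2 ratio was higher by 0.49 in the ZEB1 samples, 1.40-fold, with an exact two-sided permutation p of 0.1, the smallest that 3 samples against 3 can give. Leaving out each sample in turn gave differences of 0.43 to 0.53.

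Tfrc (chr16:32608896-32632794, plus strand, 19 exons), the transferrin receptor that brings iron into the cell, had 220.9, 198.1 and 267.7 CPM in the vector samples. In the ZEB1 samples Tfrc had 239.3, 194.6 and 194.7 CPM. Vector replicate 3 was the highest and the groups overlapped. The log2 fold change of Tfrc was -0.13 ± 0.15 (SE; 95% interval -0.47 to 0.21), with an adjusted p of 0.527 by edgeR, and without vector replicate 3 it was -0.0002. Tfrc lies on chromosome 16, where the median of the 431 other tested genes was 0.25, and its value less that median was -0.38.

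The ferritin chains form the shell in which iron is stored, FTH1 oxidising the iron and FTL1 helping to lay down its core. Fth1 (chr19:9980600-9985111, plus strand, 6 exons) had 174.4, 170.5 and 255.7 CPM in the vector samples and 158.1, 211.7 and 195.9 CPM in the ZEB1 samples. Vector replicate 3 was again the highest, and the lowest of the 6 was ZEB1 replicate 1. For Fth1 the log2 fold change was -0.09 ± 0.19 (SE; 95% interval -0.52 to 0.35), with an adjusted p of 0.748 by edgeR. Its sign turned without vector replicate 3, to 0.13 (adjusted p = 0.367 by edgeR), and without ZEB1 replicate 1, to 0.03 (adjusted p = 0.930 by edgeR).

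Ftl1 (chr7:45457944-45459886, minus strand, 4 exons) had 143.9, 160.8 and 198.2 CPM in the vector samples and 95.4, 142.5 and 134.6 CPM in the ZEB1 samples. All ZEB1 samples were below all vector samples, the highest of the former and the lowest of the latter being 142.5 and 143.9 CPM. The log2 fold change of Ftl1 was -0.43 ± 0.18 (SE; 95% interval -0.86 to -0.0073), with an unadjusted p of 0.0471 and an adjusted p of 0.102 by edgeR. Without vector replicate 3 it was -0.30 (adjusted p = 0.163 by edgeR). Ftl1 matches 7 other genes, 6 of them pseudogenes, the longest match being Ftl1-ps1 with 99.56% identity over 910 bases, so its level is uncertain. Fth1 matches Gm6977 with 90.46% identity over 524 bases.

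The ferritin chains were also set against each other within each sample. Fth1 was 0.778, 0.680 and 0.828 times Ftl1 per kilobase in the vector samples and 1.06, 0.953 and 0.933 times Ftl1 in the ZEB1 samples. The groups did not overlap, and the ratio was higher in every ZEB1 sample than in any vector sample, though Fth1 exceeded Ftl1 only in ZEB1 replicate 1. The mean log2 ratio of Fth1 to Ftl1 was higher by 0.37 in the ZEB1 samples, 1.29-fold, with an exact two-sided permutation p of 0.1, the smallest possible here. Leaving out each sample in turn gave 0.29 to 0.43. The level of Ftl1 is uncertain because of its copies, so this ratio is uncertain too.

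**Figure D2:**
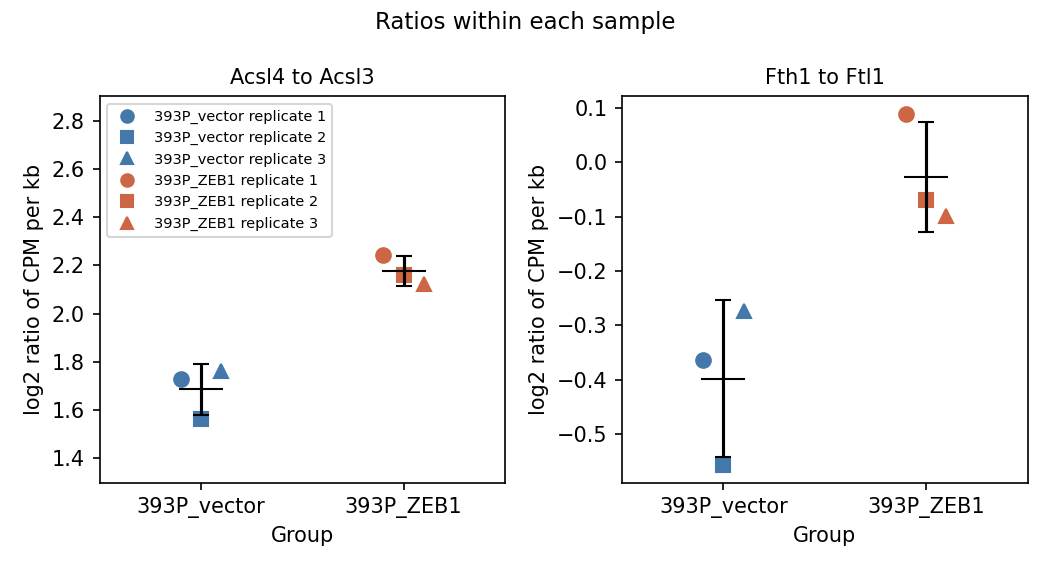
Log2 ratio of CPM per kilobase of Acsl4 to Acsl3 (left) and of Fth1 to Ftl1 (right) in each of the 6 samples, with bars at the group mean and error bars of 1 SD (n = 3). In both panels the 3 ZEB1 samples lie above the 3 vector samples, with mean differences of 0.49 and 0.37.

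Ncoa4 (chr14:32159892-32179363, plus strand, 11 exons) is the receptor that carries ferritin to the lysosome, which frees its iron. It had 22.7, 20.7 and 21.5 CPM in the vector samples and 39.0, 26.5 and 23.8 CPM in the ZEB1 samples. Each ZEB1 sample was above each vector sample, but ZEB1 replicate 1 was far above the other ZEB1 samples. Ncoa4 had a log2 fold change of 0.46 ± 0.19 (SE; 95% interval 0.02 to 0.91), with an unadjusted p of 0.0433 and an adjusted p of 0.0958 by edgeR. Leaving out each sample in turn gave fold changes of 0.22 to 0.61. Ncoa4 shares 99.89% of 1878 bases with the pseudogene Gm6768, so its level is uncertain.

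Slc40a1 (chr1:45908070-45925594, minus strand, 8 exons) encodes ferroportin. It had 3.22, 4.08 and 3.33 CPM in the vector samples and 9.50, 10.1 and 9.11 CPM in the ZEB1 samples, from 182 to 277 and from 508 to 561 counts. The groups were wide apart and the samples within each were close. Slc40a1 rose by a log2 fold change of 1.43 ± 0.16 (SE; 95% interval 1.07 to 1.79), 2.70-fold, with an adjusted p of 0.000268 by edgeR. The rise was between 1.37 and 1.55 when each sample was left out in turn, passed the test in every fit run, and passed also against a change of 1.5-fold (adjusted p = 0.00152 by edgeR). Ferroportin is known to be abundant in macrophages, so macrophage markers are given beside it. Of 3 tested, Cd14 rose and Csf1r fell, and Ptprc, which marks blood cells, was at most 0.373 CPM in any sample. The summed macrophage markers were 18.1 to 18.7 CPM in the vector samples and 57.0 to 59.9 CPM in the ZEB1 samples, of which Cd14 made up 16.7 to 17.7 and 56.5 to 59.3 CPM. The summed erythroid markers were at most 0.112 CPM.

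**Figure D3:**
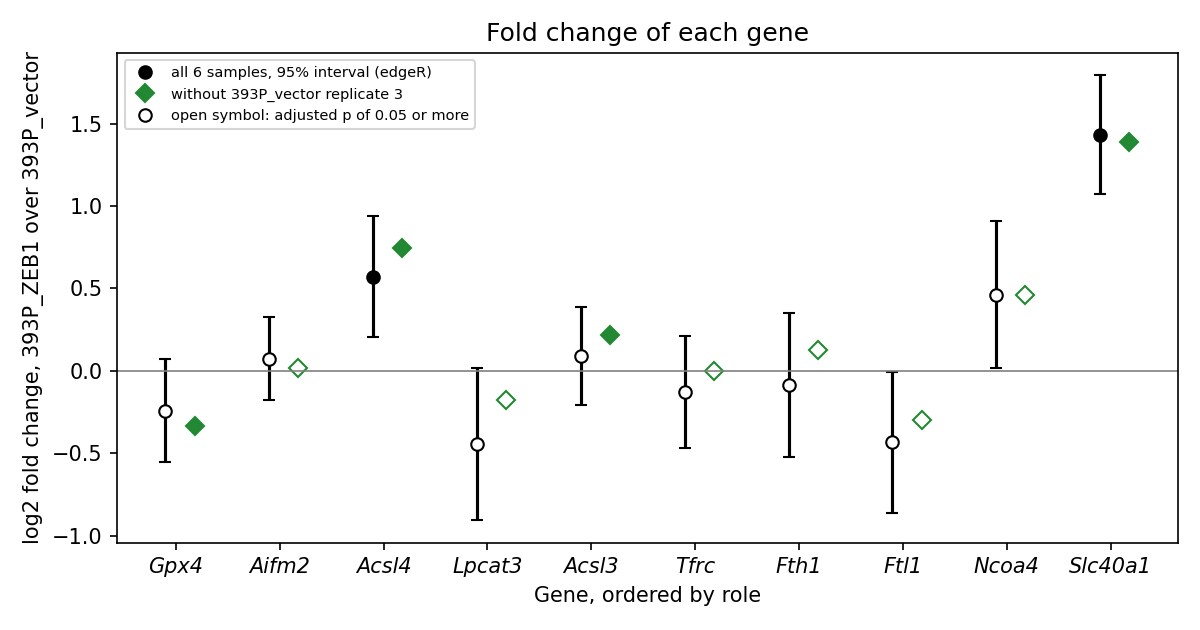
Log2 fold change, 393P_ZEB1 over 393P_vector, of the 10 genes with all 6 samples (black circles, bars for the 95% interval) and without 393P_vector replicate 3 (green diamonds), filled where the adjusted p of edgeR is under 0.05. Slc40a1 and Acsl4 are filled in both, Gpx4 and Acsl3 only without that sample, and Fth1 crosses the line at 0.

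The exact two-sided permutation test of log2 CPM of single genes gave p = 0.1, its smallest value here, for the 5 genes whose groups did not overlap (Acsl4, Lpcat3, Ftl1, Ncoa4 and Slc40a1). It gave 0.2 for Gpx4 and Aifm2, 0.4 for Acsl3, 0.5 for Tfrc and 0.8 for Fth1, in the order of the overlap described above. Less the median of its own chromosome, the log2 fold change was 0.64 for Acsl4, 0.73 for Ncoa4, 1.37 for Slc40a1 and -0.42 for Ftl1.

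ZEB1 is known to bind E-boxes with the letters CACCTG, so these were looked up in RefSeq promoters on GRCm38.p6, 250 bases before to 50 after each start, on both strands. There were 16 such promoters for 9 of the 10 genes, all but Slc40a1. The letters were found in 4 of the 16, and in 20.2% of all 32851 promoters. The sites of Gpx4, Ncoa4, Tfrc and Fth1 are printed 5′ to 3′ on the strand of the gene with the motif in capitals, where CAGGTG is CACCTG on the other strand. Their motifs lay at chr10:80053831-80053836 (Gpx4), chr14:32165833-32165838 (Ncoa4, site a), chr14:32165694-32165699 (Ncoa4, site b), chr16:32608794-32608799 (Tfrc) and chr19:9980362-9980367 (Fth1), all genes on the plus strand. The sites of Gpx4 and Ncoa4 belong to internal starts and lie inside the gene spans given above, not before them. Those of Tfrc and Fth1 lie before the spans of their genes.
Gpx4 promoter: ggggcaccCAGGTGggaaagcg
Ncoa4 promoter site a: aagtgtgcCACCTG
Ncoa4 promoter site b: cggagtagCAGGTGtgtttgcg
Tfrc promoter: tctcccgaCACCTGccgccttg
Fth1 promoter: ttttaattCACCTGggaggtat
None of these 4 genes passed the test with all samples, and for Acsl4 the letters were not in the window. The core letters of the antioxidant response element, TGACNNNGC, were in 1 of the 16 promoters, that of the same internal start of Ncoa4, and in 12.4% of all.

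A wider list of 83 genes of the same roles, chosen by function, held 82 that were used and 71 that were tested. The 61 tested besides the 10 genes comprised 14 that rose (23.0%), 11 that fell (18.0%) and 36 that did not pass, beside 18.3% and 19.3% of all tested genes. Without vector replicate 3, 24 of 64 rose and 15 fell, beside 26.2% and 26.8% of all tested genes. The roles below hold few genes each, and their counts are read against the same background. The lipid substrate enzymes had 5 of 18 that rose and 2 that fell, and 9 of 19 and 3 without vector replicate 3. Acsl6, a ligase of long-chain fatty acids, rose from 2.04 ± 0.0373 to 22.2 ± 3.06 CPM (SD, n = 3), 10.9-fold (adjusted p = 3.47e-06 by edgeR). Por, the reductase that passes electrons to cytochromes P450 and is known to promote lipid peroxidation, rose 1.60-fold from 150.1 ± 32.6 to 240.1 ± 6.03 CPM (adjusted p = 0.0144 by edgeR), a call lost without ZEB1 replicate 3 (adjusted p = 0.0511 by edgeR). Aloxe3, an epidermal lipoxygenase, fell by 2.30 on the log2 scale from a level of only 1.16 CPM (adjusted p = 0.00358 by edgeR).

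Of the 18 other peroxide defence genes, 3 rose (16.7%), 4 fell (22.2%) and 11 did not pass, beside 18.3% and 19.3% of all tested genes. With vector replicate 3 left out, 4 rose and 4 fell, beside 26.2% and 26.8% of all tested genes. The 3 that rose were Gclc, Gss and Slc7a11. Gclc, the catalytic subunit of the rate-limiting ligase, had 62.2, 61.6 and 59.0 CPM in the vector samples and 197.4, 169.3 and 167.2 CPM in the ZEB1 samples. Its samples were far apart between the groups, and Gclc rose 2.92-fold (adjusted p = 2.31e-05 by edgeR). Gss, the synthetase of the next step, rose 1.86-fold (adjusted p = 0.00240 by edgeR). Slc7a11, the cystine importer that feeds glutathione synthesis, had 37.7, 34.1 and 47.5 CPM in the vector samples and 74.1, 65.5 and 60.3 CPM in the ZEB1 samples. Slc7a11 rose 1.68-fold (adjusted p = 0.00713 by edgeR), and its partner chain Slc3a2 had 0.947-fold (adjusted p = 0.627 by edgeR). Gclm, the modifier subunit beside Gclc, had 0.881-fold (adjusted p = 0.230 by edgeR). Gch1, which starts the synthesis of the antioxidant tetrahydrobiopterin, fell by 1.06 on the log2 scale from 6.15 to 2.95 CPM (adjusted p = 0.00512 by edgeR). The other 3 that fell were Dhodh (0.744-fold), a mitochondrial quinone reductase, and Eefsec (0.695-fold) and Sephs2 (0.665-fold), which serve the making of selenoproteins such as GPX4. The calls of Dhodh (adjusted p of 0.0686 to 0.105 by edgeR) and Sephs2 (0.0688 to 0.117) were lost without any of the samples other than vector replicate 3. Nfe2l2, which encodes the antioxidant regulator NRF2, had a log2 fold change of 0.36 (adjusted p = 0.143 by edgeR) and passed without vector replicate 3, at 0.57 (adjusted p = 0.000329 by edgeR).

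Of 5 tested genes listed under iron uptake besides Tfrc, 3 rose, 1 fell and 1 did not pass, where 18.3% of all tested genes rose and 19.3% fell. The counts do not give the direction in which uptake itself changed. In the fit without vector replicate 3, 3 of 6 rose and 3 fell, beside 26.2% and 26.8% of all tested genes. Hfe, which binds the transferrin receptor, rose 3.68-fold from 1.96 to 7.18 CPM (adjusted p = 0.000237 by edgeR). Steap3, the endosomal ferrireductase, rose 2.54-fold from 35.3 ± 2.63 to 89.7 ± 4.72 CPM (SD, n = 3; adjusted p = 5.19e-05 by edgeR). Slc39a8, a metal importer, rose 2.17-fold (adjusted p = 0.000363 by edgeR). The step after Steap3 moved the other way, since Slc11a2, the transporter that passes ferrous iron out of the endosome, fell by 1.13 on the log2 scale from 51.4 ± 2.98 to 23.5 ± 1.18 CPM (SD, n = 3; adjusted p = 0.000137 by edgeR). The groups did not overlap in any of the 5 genes tested with all samples, while 52.8% of all tested genes did not overlap.

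Of 4 tested storage and release genes besides Fth1, Ftl1 and Ncoa4, none rose and 2 fell, where 18.3% of all tested genes rose and 19.3% fell. Leaving out vector replicate 3 gave 1 that rose and 2 that fell, beside 26.2% and 26.8% of all tested genes. Hmox1, the heme oxygenase that frees iron from heme and a known target of NRF2, fell by 1.09 on the log2 scale from 48.0 ± 4.05 to 22.6 ± 0.801 CPM (SD, n = 3; adjusted p = 0.000209 by edgeR). Pcbp1, a chaperone that delivers iron to ferritin, fell by 0.91 (adjusted p = 0.0457 by edgeR), with 35.8, 44.5 and 82.7 CPM in the vector samples. Its highest value was again vector replicate 3, without which the log2 fold change of Pcbp1 was -0.47, and the call was lost without any 1 of the ZEB1 samples (adjusted p of 0.0938 to 0.161 by edgeR), with no filter on low counts (0.0610) and with at least 10 counts in every sample (0.0509). Of the genes listed under iron export besides Slc40a1, Heph, Hephl1 and Hamp did not pass the filter on low counts and Cp was tested. Flvcr1, also listed there, was not found by that name among the features. Cp encodes ceruloplasmin, the ferroxidase that works with ferroportin, and had 2.30, 1.60 and 2.32 CPM in the vector samples and 29.6, 26.7 and 26.0 CPM in the ZEB1 samples. Cp rose 13.2-fold (adjusted p = 5.29e-06 by edgeR), so the exporter and its ferroxidase both rose.

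Of 11 genes of iron sensing and mitochondrial iron, 2 rose (18.2%), 2 fell (18.2%) and 7 did not pass, where 18.3% of all tested genes rose and 19.3% fell. When vector replicate 3 was left out, 4 rose and 2 fell, beside 26.2% and 26.8% of all tested genes. The iron regulatory proteins that bind the hairpins printed above are encoded by Aco1 and Ireb2. Aco1 had a log2 fold change of 0.04 (adjusted p = 0.762 by edgeR), and Ireb2 had 0.19 (adjusted p = 0.240 by edgeR) and passed without vector replicate 3, at 0.28 (adjusted p = 0.0206 by edgeR). Slc25a37, the mitochondrial iron importer, fell by 0.72 (adjusted p = 0.00167 by edgeR). Bach1, a repressor of Hmox1 and of other heme and iron genes, rose 1.43-fold (adjusted p = 0.0177 by edgeR), a call lost without any 1 of the ZEB1 samples (adjusted p of 0.0532 to 0.0674 by edgeR). Cisd1, an iron-sulfur protein of the outer mitochondrial membrane, fell by 1.81 (adjusted p = 0.0329 by edgeR), with 9.15, 10.1 and 36.6 CPM in the vector samples and 3.83, 5.96 and 6.11 CPM in the ZEB1 samples. The size of the fall of Cisd1 rested on vector replicate 3, without which the log2 fold change was -0.86 (adjusted p = 0.00330 by edgeR). The call of Cisd1 was lost without any 1 of the ZEB1 samples (adjusted p of 0.0849 to 0.131 by edgeR) and with no filter on low counts (0.0914).

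None of the 4 genes often raised in cells undergoing ferroptosis (Ptgs2, Chac1, Sat1 and Hspb1) passed the test by edgeR. Among all tested genes 18.3% rose and 19.3% fell, so the lack of a call among only 4 genes says little. At an unadjusted p under 0.05, none was higher and 1, Chac1, was lower (0.754-fold, adjusted p = 0.0553 by edgeR), beside 22.4% and 24.2% of all tested genes. Ptgs2, which encodes an inducible cyclooxygenase, had 439.3 ± 86.4 CPM in the vector samples and 497.5 ± 53.1 CPM in the ZEB1 samples (SD, n = 3). Without vector replicate 3, Ptgs2 (log2 fold change 0.35, adjusted p = 0.0152 by edgeR) and Hspb1 (0.42, adjusted p = 0.0373) rose and Chac1 fell by 0.42 (adjusted p = 0.0207). In that fit 26.2% of all tested genes rose and 26.8% fell.

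**Figure D4:**
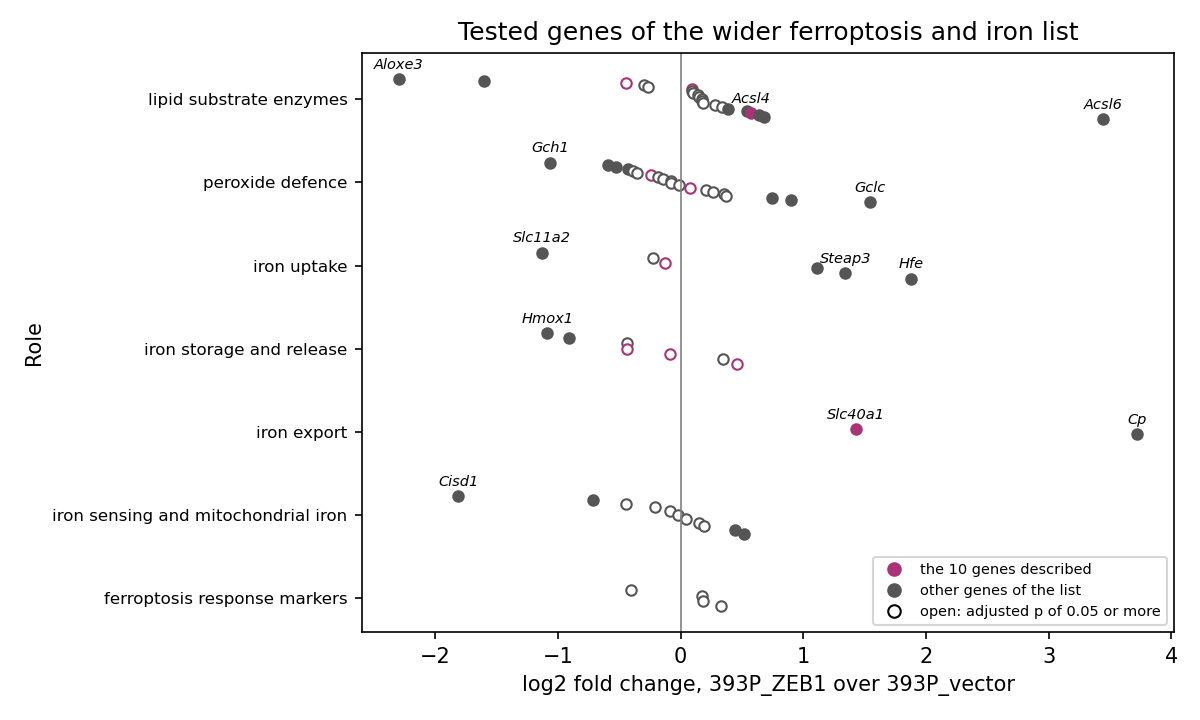
Log2 fold change of the 71 tested genes of the wider list by role, with purple for the 10 genes described and grey for the others, filled where the adjusted p of edgeR is under 0.05. The farthest to the right are Cp (3.72) and Acsl6 (3.44), and the farthest to the left is Aloxe3 (-2.30).

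The tested genes whose log2 CPM over the 6 samples was most like that of the 3 genes with the largest fold changes were found by Pearson's r, as a description. For Slc40a1 it was Hhat (r = 0.9988), and 1220 genes had an r over 0.95, since all share the difference between the groups. For Acsl4 it was Far1 (r = 0.9995), which makes fatty alcohols for ether lipids, with 388 genes over 0.95. Far1 had 176.6, 152.0 and 239.5 CPM in the vector samples and 327.5, 286.1 and 269.3 CPM in the ZEB1 samples, so it shared with Acsl4 the high vector replicate 3 and the highest value in ZEB1 replicate 1. For Ncoa4 it was Mirlet7a-2 (r = 0.9954), a microRNA hairpin at 0.867 to 2.02 CPM, with 32 genes over 0.95.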

How the data were processed

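Total RNA of 3 samples of 393P_vector and 3 of 393P_ZEB1 was sequenced on the SOLiD platform. For each sample the authors deposited the raw count of reads on each of 24214 features with GRCm38 coordinates and exon length. The RPKM that the authors deposited beside it, the count scaled by exon length and total reads, was not used. The aligner, the counting program and the treatment of reads shared between copies of a gene are not given in the sources used here.

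The 10 genes and the gene lists were chosen with earlier results of these data known. Of the wider list, the genes named were, in each role, up to 3 with the largest change among those past the threshold with a mean of at least 1 CPM in either group, and Slc7a11, Nfe2l2, Ireb2 and Aco1. Slc3a2, Gclm, Dhodh, Eefsec, Sephs2, Slc39a8, Heph, Hephl1, Hamp and the 4 response genes were named after their values were seen. For likeness, the gene with the highest r was named for the 3 genes with the largest change.

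In R 4.3.3, edgeR 4.0.16 tested 393P_ZEB1 against 393P_vector by quasi-likelihood over all genes kept by filterByExpr (minimum count 10, 13892 genes), with TMM scaling, a robust fit and Benjamini-Hochberg adjustment (threshold 0.05). TMM factors were 0.979 to 1.05. Single values were compared by exact permutation. Likeness used log2(CPM + 0.5). The alternatives were DESeq2 1.42.0, its size factors, limma 3.58.1 with voom and sample weights, filters on low counts, a replicate block, leaving out each sample or the 10 most counted genes, a threshold of 0.01 and a test against 1.5-fold. A level of 3 counts corresponded to 0.0379 to 0.0551 CPM. The count fit was tested on simulated data with the same setting of spread for all genes. No simulated sample stood apart as vector replicate 3 did, so that case was not covered. Sequences came from GENCODE M21 and RefSeq, and copies were searched with blastn 2.17.0+ (at least 200 bases with 90% identity). Python 3.11.15 and matplotlib 3.10.9 were used for sequences and figures.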

Additional observations from a re-analysis of the deposited data

How the results depend on the processing

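Of 160 recomputed fold changes of the 10 genes, 142 were counted as unchanged, in most settings by their direction and their side of the threshold. Values less the chromosome median have no p-value and were counted as unchanged where the shift was under the SD within groups. The threshold of 0.01 and the test against 1.5-fold could not change genes that had no call, so this count overstates the stability. Acsl4 lost its call in 7, Gpx4 and Acsl3 passed in 4 (voom and without vector replicate 3), and 4 moved when the chromosome median was taken off. The sign of Fth1 turned in 3, to 0.16 with voom, 0.13 without vector replicate 3 and 0.03 without ZEB1 replicate 1, and its values ran from -0.19 to 0.13 as each sample was left out. Aco1 turned to -0.0086 with voom and ran from -0.0173 to 0.0886 as each sample was left out. Limma with voom, which weights the samples, called 3971 genes higher and 4100 lower, 1 of the 10 genes lower, and 28 and 18 of the wider list, where edgeR called 16 and 11. Against a change of 1.5-fold 1081 genes were higher and 1118 lower, with 1 of the 10 and 7 of the wider list higher and 4 of the list lower. At a threshold of 0.01 there were 1584 and 1545, with 1 of the 10 and 9 of the list higher and 5 of the list lower. As each sample was left out, 1861 to 3700 genes were higher and 1784 to 3776 lower, 1 to 3 of the 10 genes higher and 0 to 1 lower, and 9 to 27 of the list higher and 6 to 16 lower, the 27 and 16 being without vector replicate 3 and the 9 and 6 without ZEB1 replicate 3. The counts by role without vector replicate 3 were added after seeing the data. The cause was not tested. Fits without 1 sample leave a group of 2. Of 329 recomputed fold changes of the other 22 named genes, which were added after seeing the data, 292 kept their direction and side of the threshold.

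The titles carry replicate numbers 1 to 3 in each group. Deviations of same-numbered samples from their group means correlated with r of 0.28, -0.21 and -0.04 across genes, and those of other pairs with -0.18 to 0.22, so the numbers were not taken to pair the samples. With the replicate number as a block, Slc40a1 rose by 1.44 (adjusted p = 0.00138 by edgeR) and Acsl4 by 0.59 (adjusted p = 0.0413 by edgeR), and the block called the same number of the 10 genes, 2 higher and 0 lower. Slc40a1 rested on 182 to 561 counts per sample, the fewest of the 10 genes.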
